A study of Mus musculus with 4 samples.

Results

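miR-122 is the microRNA (miRNA) most closely tied to the hepatocyte, and its 2 mature arms, mmu-miR-122-5p and mmu-miR-122-3p (mmu for mouse), were followed here in small RNA libraries of fibrotic and control mouse liver. The members were taken by name: they are 2 of the 1907 mature miRNA entries counted in each library. All mice were C57BL/6 and 15 weeks old at sampling. The controls carry no further description of what, if anything, was injected. The treated mice were given thioacetamide (TAA), a compound that liver enzymes turn into a hepatotoxin, intraperitoneally at 200 mg/kg, with 3 injections weekly over 10 weeks. Each group had 2 libraries from whole liver, which the design text calls biological replicates without naming the animals, so p-values measure the spread between these libraries.

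miRNAs are cut from a hairpin precursor whose 2 sides give the 5p and 3p mature forms. One of them is usually retained in Argonaute and guides it to mRNAs through its seed, the bases near its 5′ end, and the other is mostly degraded. In miR-122 the 5p arm is the guide. Hepatocyte transcription factors such as HNF4A drive its precursor, and it is known for restraining mRNAs of non-hepatocyte programmes and for supporting cholesterol and fatty acid synthesis in the adult liver. It is known as a miRNA of hepatocytes rather than of other liver cells, and it is released into blood when they are injured. Mice without it develop steatosis, fibrosis and liver tumours.

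The hairpin gene Mir122 lies on the plus strand of chromosome 18 at 65248861 to 65248926 (GRCm38, which is mm10), where it spans 66 bases. In GENCODE it falls inside exon 2 of the long non-coding RNA gene AC157910.3, which runs from 65244287 to 65252621 on the same strand. It is therefore exonic in a non-coding transcript and overlaps no coding sequence of that gene.

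Each library held between 42609845 and 48878003 miRNA counts. Thus 1 CPM (a miRNA count scaled to a fixed library total) stands for 42.6 to 48.9 counts, before the further scaling by TMM factors used below. Of 644 miRNAs that passed the filter on low counts, 107 changed between the groups by edgeR's quasi-likelihood F test at a Benjamini-Hochberg adjusted p under 0.05, which is 16.6% of those tested. Of these, 90 were higher in TAA-treated liver and 17 lower, or 14.0% and 2.64% of those tested. The split was 83 and 32 with upper-quartile factors, and 54 and 49 changed in all when TAA 1 or TAA 2 was left out, in that order. Both arms of miR-122 passed the filter, with at least 62754 counts in every library, far above it.

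miR-122 was read deeply in every library, with the guide arm about 11 to 13 times the count of its partner. miR-122-5p had 774059 and 923684 counts in the controls, then 789780 and 897773 in TAA-treated liver. Those are 1.82% and 1.998% of miRNA counts in control 1 and control 2, and 1.80% and 1.84% in TAA 1 and TAA 2. The 4 shares lie close together, and TAA 2 lies above control 1. miR-122-3p had 68187 and 77761 counts in the controls, then 62754 and 69969 in TAA-treated liver. Its shares were 0.160% and 0.168% in the controls against 0.143% in each TAA library, so both TAA libraries lay below both controls. The 95% Wilson intervals of the 3p share ran from 0.159% to 0.161% in control 1, the lower control, and from 0.142% to 0.144% in TAA 1. These intervals cover counting error among reads only, not the spread between libraries. No molecular identifiers are stated for the reads. By share, miR-122-5p averaged 1.91% ± 0.13 in control and 1.82% ± 0.025 in TAA-treated liver (SD, n = 2), and a two-sided exact permutation test gave p = 0.667. For miR-122-3p the means were 0.164% ± 0.0058 and 0.143% ± 2.16e-06, with an exact permutation p = 0.333, the smallest that 2 libraries against 2 allow.

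Although miR-122-5p is the classic marker of hepatocytes, it did not lead these libraries by count. It ranked 12 and 11 among all miRNAs in the controls and 13 in both TAA libraries. miR-192-5p, another liver-enriched miRNA, held rank 1 in all 4 and had 12.2 to 13.4 times the count of miR-122-5p. In control 1 the neighbours of miR-122-5p were let-7f-5p at 1.97% of counts above it and miR-92a-3p at 1.66% below it. In control 2 they were miR-126a-5p, an endothelial miRNA, at 2.34% above and let-7f-5p at 1.99% below. In TAA 1 and TAA 2 the neighbour above was miR-92a-3p, at 1.82% and 1.98%, and the neighbour below was miR-99b-5p, at 1.35% and 1.18%. Where let-7f-5p and miR-92a-3p were its neighbours, they differed from miR-122-5p by less than the 2 controls differed from each other in miR-122-5p, so their order beside it is not settled. miR-122-3p ranked 41 and 39 in the controls and 44 in both TAA libraries. Ranks compare reads, which were not scaled for how well each miRNA is captured.

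**Figure D1:**
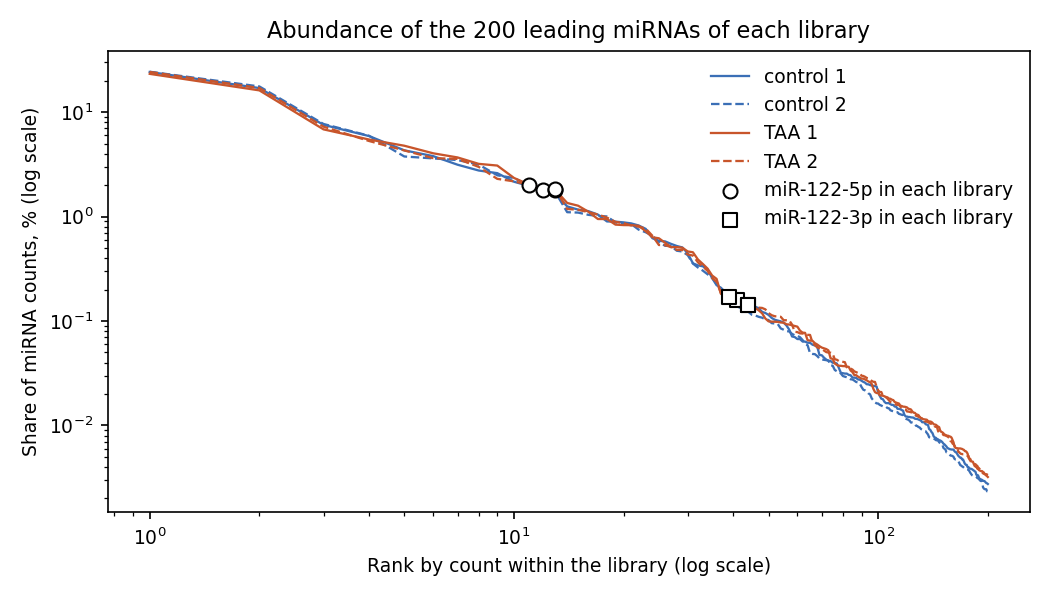
Share of miRNA counts (percent, log scale) against rank within the library (log scale) for the 200 leading miRNAs of each of the 4 libraries. Circles mark miR-122-5p at ranks 11 to 13 and squares miR-122-3p at ranks 39 to 44; the 4 curves lie nearly on each other.

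TAA-treated against control liver is the comparison the series names. After scaling with TMM factors, miR-122-5p measured 18285 and 21608 CPM in control 1 and control 2, and 17376 and 17500 CPM in TAA 1 and TAA 2. Both TAA libraries were lower than both controls, but control 1 lay nearer to them than to control 2, which was 1.18 times control 1. The group means were 19946 ± 2350 and 17438 ± 87.6 CPM (SD, n = 2). The log2 fold change was -0.19 (SE 0.11, 95% interval -0.45 to 0.06) with an edgeR adjusted p = 0.328, so the guide arm did not pass the test. On the linear scale the interval runs from 26.5% lower to 4.06% higher, so a decrease and no decrease both lie within it. Groups without overlap were found for 55.3% of all miRNAs tested, and both TAA libraries lay below both controls in 25.6%.

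miR-122-3p, the partner arm, measured 1611 and 1819 CPM in the controls, then 1381 and 1364 CPM in TAA-treated liver. Here the gap between the groups was wider than the gap between the controls. The means were 1715 ± 147 and 1372 ± 11.9 CPM (SD, n = 2), a log2 fold change of -0.32 (SE 0.11, 95% interval -0.58 to -0.06). Its unadjusted p of 0.0211 became an edgeR adjusted p = 0.107 over all 644 miRNAs, so it did not pass either. With upper-quartile factors in place of TMM, under which the median over all miRNAs went from -0.0042 to -0.17, the 3p arm passed as lower (log2 fold change -0.50, edgeR adjusted p = 0.0407, against 0.0575 to 0.451 over its other alternatives). With library size alone, under which that median was 0.12, its log2 fold change was -0.20 and its edgeR adjusted p = 0.359.

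**Figure D2:**
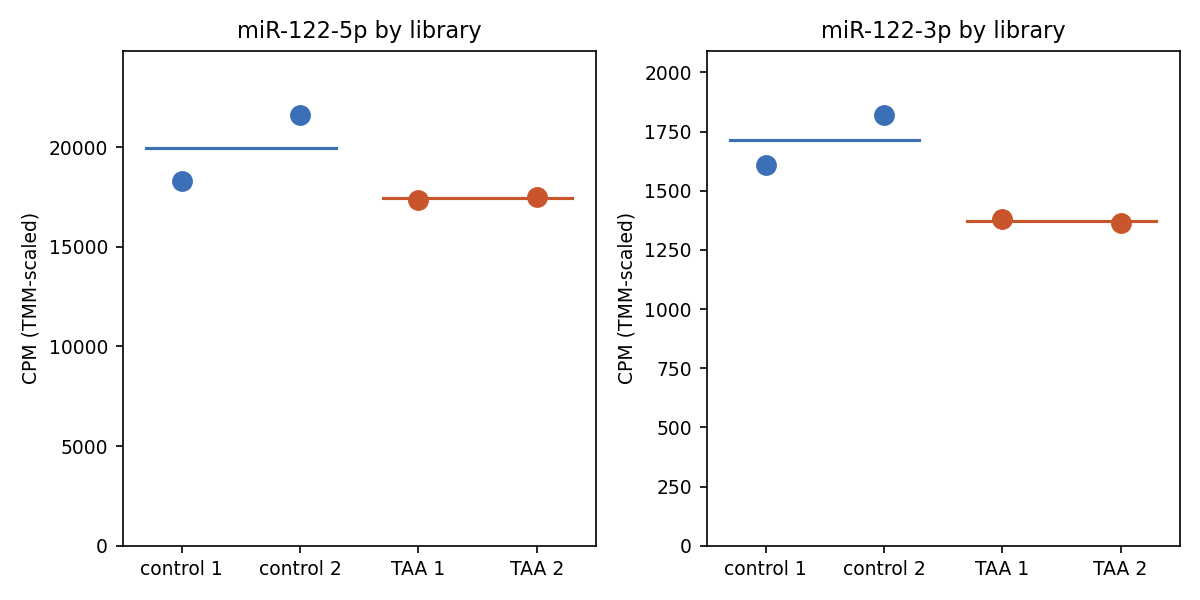
TMM-scaled CPM of miR-122-5p (left) and miR-122-3p (right) in each of the 4 libraries, with axes from 0; points are libraries and lines are group means. The 2 TAA libraries nearly coincide in both panels (17376 and 17500 CPM; 1381 and 1364 CPM), while the controls differ from each other.

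The estimate for the guide arm depended on which control library was left out. Without control 2, the log2 fold change of miR-122-5p was -0.08, and its share was higher in TAA-treated liver by 0.0026 percentage points. Without control 1, it was -0.33 (edgeR adjusted p = 0.0741). For miR-122-3p the same fits gave -0.24 and -0.43 (edgeR adjusted p = 0.447 and 0.0662). A fit without 1 library assumes that the lone library of its group varies like those of the other group. Each of the 14 alternative fits gave a negative log2 fold change for both arms.

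**Figure D3:**
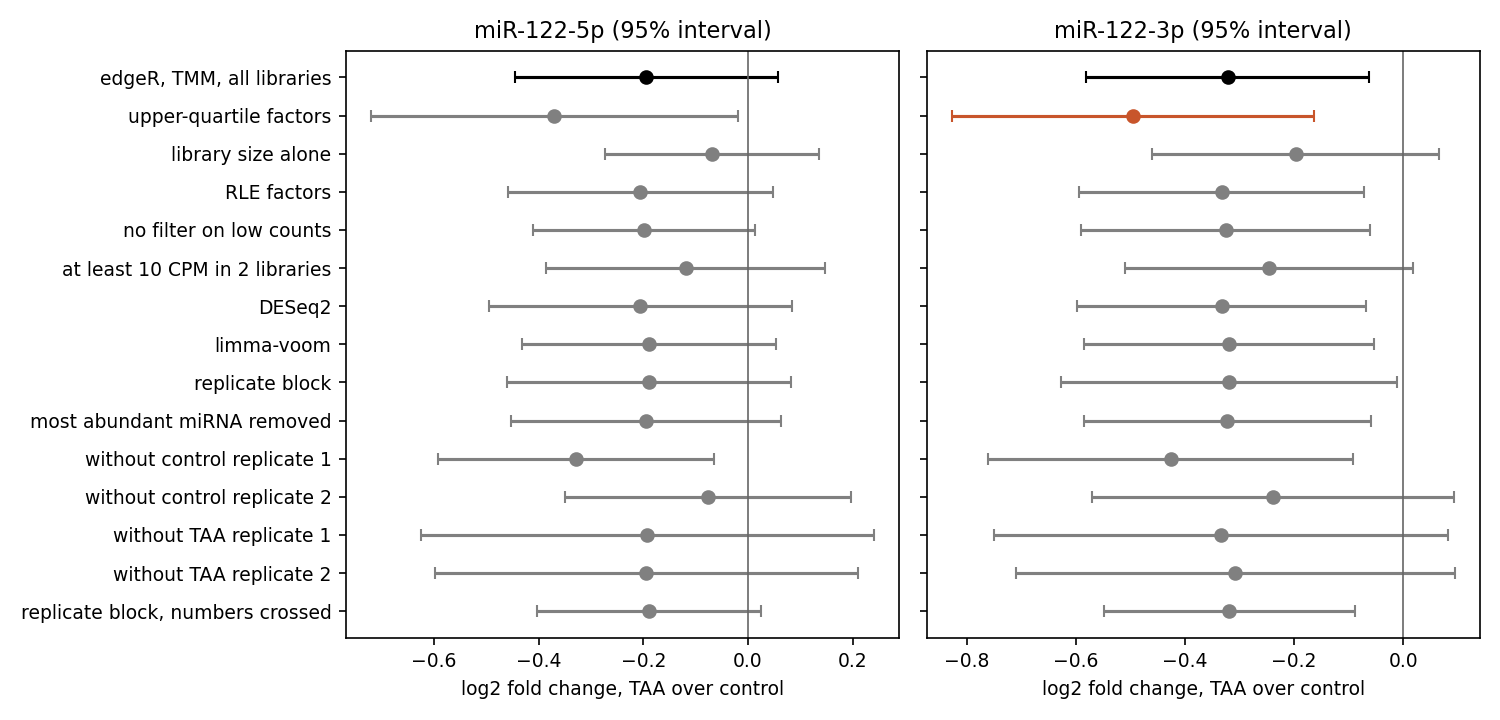
Log2 fold change of miR-122-5p (left) and miR-122-3p (right), TAA over control, with 95% intervals, in the edgeR fit with TMM factors (black) and under each alternative (grey, or orange where the adjusted p was under 0.05). Points lie below 0 throughout, and upper-quartile factors gave the single orange point, for miR-122-3p.

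The ratio of the arms needs no scaling, because both are counted in the same library. miR-122-5p had 11.4 and 11.9 counts for each miR-122-3p count in control 1 and control 2, and 12.6 and 12.8 in TAA 1 and TAA 2. The groups did not overlap, and the same held for 30.7% of the 150 hairpins with both arms measured. As a share of miR-122 counts, the 3p arm took 8.10% and 7.76% in the controls, then 7.36% and 7.23% in TAA-treated liver. The lower control (7.71% to 7.82%) and the higher TAA library (7.31% to 7.42%) had 95% Wilson intervals that do not touch, but these too cover counting error only and not the spread between libraries. The log2 ratio was higher in TAA-treated liver by 0.13 (SE 0.17, 95% interval -0.31 to 0.57), a 1.09-fold difference. It did not pass limma's moderated test (adjusted p = 0.985).

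That test shares its estimate of the spread over all hairpins, and miR-122 was among the steadiest of them. The SD of its log2 ratio within a group was 0.036, against a median of 0.18 over the 150 hairpins, and 1 hairpin had a smaller one. Its difference between the groups was 3.66 times its own SD, which rests on 2 libraries in each group. Other hairpins had larger multiples: miR-199a differed by -0.25 with an SD of 0.036, and miR-29a by 0.13 with an SD of 0.025. How many of the 150 exceeded miR-122 in this multiple was not counted. In the size of the log2 difference itself, not divided by an SD, 79 hairpins exceeded miR-122. No hairpin passed limma at an adjusted p under 0.05 (0% of those tested; 5 had an unadjusted p under 0.05). That count moved with the setting: 3 passed with a pseudocount of 5, and 11 and 13 without control 1 and without control 2, while miR-122 passed in none of the 8 alternatives.

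**Figure D4:**
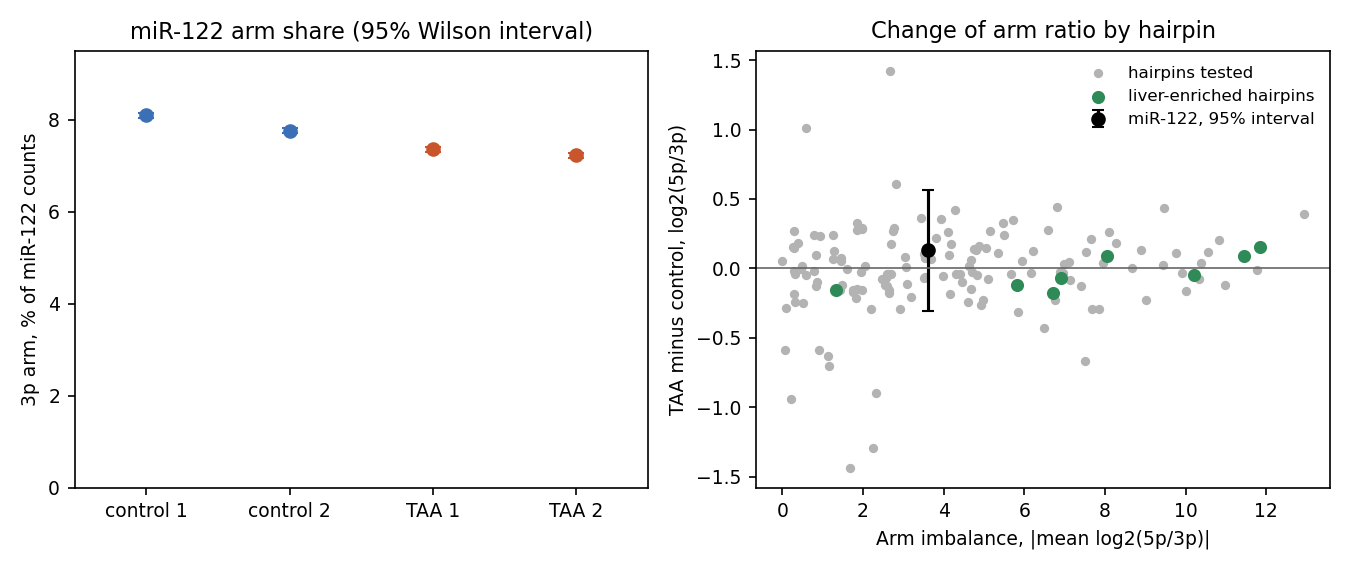
Left, the 3p arm as a percentage of all miR-122 counts in each library with its 95% Wilson interval, from 8.10% in control 1 to 7.23% in TAA 2. Right, the difference in log2(5p/3p) between TAA-treated and control liver against how unequal the arms are, for 150 hairpins; miR-122 (black, with its 95% interval) lies at 0.13, within the cloud of the others.

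miR-122 was about as lopsided as the typical hairpin, and less so than most liver-enriched ones. Over the 150 hairpins the leading arm had a median of 12.5 times the count of the other, and 75 were more lopsided than miR-122. Of the 8 other liver-enriched hairpins with both arms measured, 3 favoured the 5p arm and 5 the 3p arm, and only that of miR-802 was less lopsided, at 2.53-fold. The most lopsided was miR-101b, whose 3p arm had 3704 times the count of its 5p arm. In miR-192, 2413 and 2985 counts of the 5p arm stood against each 3p count in control liver, with 2857 and 2865 after TAA, so the groups overlapped. The changes of log2 ratio in those 8 ran from -0.18 to 0.15, and 2 of the 8 did not overlap between the groups, against 30.7% of all 150 hairpins.

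The other liver-enriched miRNAs were also somewhat lower after TAA, and likewise did not pass the test. The list holds 11 others: miR-192-5p, miR-194-5p, miR-215-5p, miR-148a-3p, miR-101a-3p, miR-101b-3p, miR-802-5p, miR-802-3p, miR-378a-3p, miR-30a-5p and miR-22-3p. Not all are confined to hepatocytes; miR-22-3p and miR-30a-5p are found in many cell types. All 11 had a negative log2 fold change, although that of miR-215-5p was near 0 and turned positive with library size alone (0.11). Their median was -0.24, against -0.0042 over all miRNAs tested, and their range -0.49 to -0.0043. That list median was -0.41 with upper-quartile factors and -0.11 with library size alone, under which the median of all miRNAs was itself -0.17 and 0.12. None passed edgeR at an adjusted p under 0.05, where 2.64% of all miRNAs passed as lower and 16.6% in either direction. Among the 11, 4 had an unadjusted edgeR p under 0.05, and 0 passed with DESeq2 or limma-voom. The number that passed as lower was 1 with upper-quartile factors, 2 with no filter on low counts, 4 without control 1, 2 without control 2, and 0 when either TAA library was left out. In TMM-scaled CPM, both TAA libraries lay below both controls in 8 of the 11, as they did in 25.6% of all miRNAs tested. By unscaled share of miRNA counts, that order held among them for miR-148a-3p, miR-30a-5p, miR-101a-3p and miR-101b-3p. It did not hold for miR-192-5p (control 1 24.33%, TAA 2 24.34%), miR-22-3p (17.05%, 17.08%), miR-194-5p or miR-378a-3p. No such share over all miRNAs was taken without scaling.

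The 4 most abundant of them are given library by library, in TMM-scaled CPM. miR-192-5p measured 244876 and 264434 CPM in the controls, then 225049 and 231934 CPM in TAA-treated liver. miR-22-3p measured 171656 and 191132 CPM, then 156340 and 162696 CPM. miR-148a-3p measured 76272 and 83541 CPM, then 66160 and 69383 CPM. In these 3 control 2 was the highest library and TAA 1 the lowest, the order also seen for miR-122-5p. miR-30a-5p measured 59578 and 64395 CPM in the controls, then 52888 and 50566 CPM in TAA-treated liver, with TAA 2 the lowest, as for miR-122-3p.

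**Figure D5:**
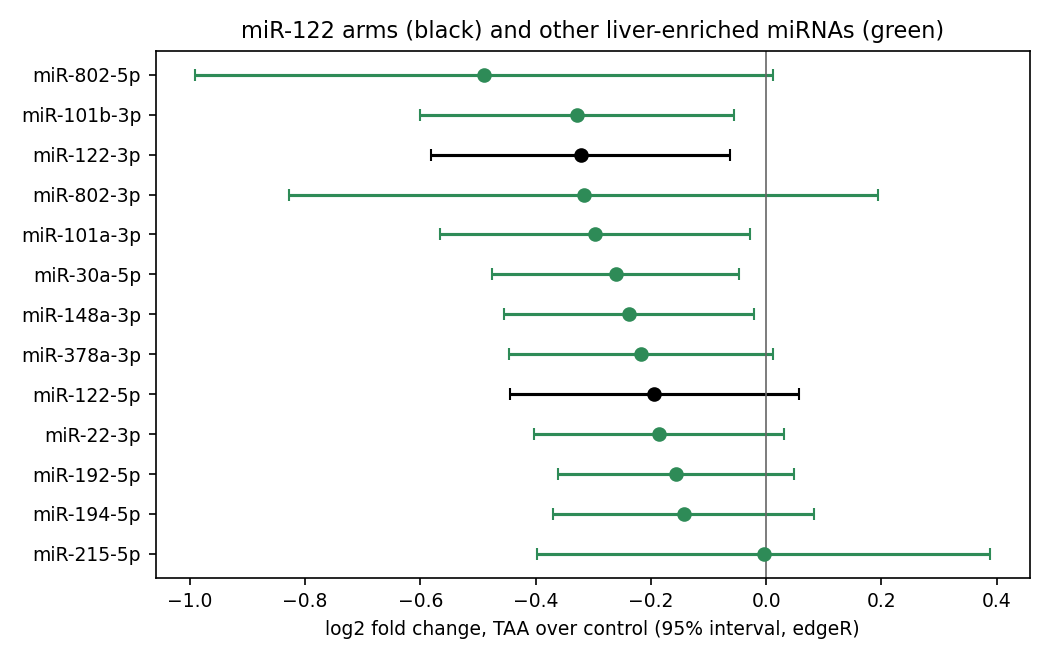
Log2 fold change (TAA over control, edgeR with TMM factors) with its 95% interval for both arms of miR-122 (black) and the 11 other liver-enriched miRNAs (green). The points run from -0.49 (miR-802-5p) to -0.0043 (miR-215-5p), and those of miR-122-3p (-0.32) and miR-122-5p (-0.19) fall inside that range.

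Counted against those miRNAs directly, miR-122-5p kept a similar part of the summed counts. It made up 3.02% and 3.26% of its own and their summed counts in the controls, then 3.17% and 3.10% in TAA-treated liver, so that both TAA libraries lay between the controls. Most of the summed counts came from miR-192-5p and miR-22-3p. In control 1 they held 24.3% and 17.1% of miRNA counts, where the 11 others together held 58.4%. The ratio of miR-122-5p to each of the 11 was then taken within each library. For 9 of the 11 the groups overlapped. For miR-101a-3p and miR-101b-3p the ratio was higher in both TAA libraries: miR-122-5p had 3.47 and 3.48 times the count of miR-101a-3p in the controls, then 3.88 and 3.598 times in TAA-treated liver. For miR-101b-3p the ratios were 2.03 and 1.97, then 2.15 and 2.23. The median difference over the 11 was 0.05 on the log2 scale, from -0.19 to 0.28, and was given no test. No such ratio was taken to miRNAs outside the list, so how often the groups overlap among all miRNAs is not known here.

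miRNAs of other liver cell types were measured in the same libraries. In whole liver, fewer hepatocytes and less miR-122 per hepatocyte cannot be told apart. Leukocyte miRNAs summed to 1230 and 1823 CPM in the controls, then 2528 and 2090 CPM in TAA-treated liver, and 4 of 8 rose, where 14.0% of all miRNAs did; miR-142a-5p, the most abundant, measured 935 ± 324 and 1389 ± 140 CPM (SD, n = 2) and did not pass. Mesenchymal miRNAs, of stellate cells, fibroblasts and smooth muscle, summed to 28185 and 28425 CPM, then 32243 and 23842 CPM. Of these, 1 of 7 rose, near the 14.0% of all miRNAs that did. Most of the mesenchymal sum came from miR-143-3p, at 26600 ± 458 and 25852 ± 5545 CPM. Erythroid miRNAs summed to 445 and 274 CPM, then 731 and 2627 CPM, and 5 of 5 rose, with TAA 2 far above TAA 1; miR-486a-5p, the most abundant, was at 418 and 1478 CPM there. Biliary epithelial miRNAs summed to 387 and 428 CPM, then 360 and 333 CPM, and 2 of 5 fell, where 2.64% of all miRNAs did, though not their most abundant, miR-200b-3p. Neither endothelial miRNA passed, and their sum was 25346 and 29185 CPM, then 26409 and 22655 CPM. These counts depended on single libraries and on the method. With DESeq2 no erythroid miRNA passed, with limma-voom 2 did, and with a minimum of 10 CPM in 2 libraries 0 of the 3 then tested did. Over the fits with all libraries, between 2 (upper-quartile factors) and 7 (library size alone, among others) leukocyte miRNAs rose and between 0 (upper-quartile factors) and 4 (library size alone) mesenchymal ones. At least 10 CPM left 0 of 4 biliary miRNAs lower, against 2 of 5 in the other fits with all libraries. Without TAA 1, 1 leukocyte and 5 erythroid miRNAs rose and no biliary one fell; without TAA 2, 1 leukocyte and no erythroid miRNA rose and no biliary one fell; the mesenchymal rise was lost in both and without control 2. Without control 2, 8 leukocyte miRNAs rose, and without control 1, 3 mesenchymal ones did. In those 2 fits 1 biliary miRNA fell. In the fit without control 2, mesenchymal miRNAs moved in both directions: a fall was called among them, while their median log2 fold change was 0.37. None of the miRNAs of these cell type lists was at 0 in any library, and their part in the levels of miR-122 was not tested.

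The miRNAs whose pattern over the 4 libraries was nearest to each arm were named by a distance. Among 137 miRNAs of at least 100 CPM on average, the log2 CPM of each was centred on its mean over the libraries, and the Euclidean distance to miR-122 was taken. Nearest to miR-122-5p were miR-22-3p (distance 0.069), miR-16-5p (0.092), miR-148a-3p (0.100), miR-192-5p (0.101) and miR-151-5p (0.108), against a median of 0.34 over the 136 compared. Of these 5, 3 are in the liver-enriched list, which gave 10 of the 136 compared (7.35%). Nearest to miR-122-3p were miR-340-5p (0.076), miR-15a-5p (0.080), miR-101b-3p (0.080), miR-30a-5p (0.081) and miR-30e-5p (0.106), against a median of 0.39; 2 of these 5 are in that list. The arms of miR-122 lay 0.14 from each other, and 12 miRNAs were nearer to the 5p arm than the 3p arm was. The distances share the same 4 libraries and scaling, and are a description with no test.

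The mature sequences of 9 of these 10 neighbours, from RefSeq for GRCm38.p6, are shown because some of the neighbours turned out to share seeds. Capitals mark the seed, bases 2 to 8, and each is written 5′ to 3′.
miR-22-3p: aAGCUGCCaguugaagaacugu
miR-16-5p: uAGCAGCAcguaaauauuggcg
miR-15a-5p: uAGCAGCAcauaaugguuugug
miR-30a-5p: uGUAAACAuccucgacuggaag
miR-30e-5p: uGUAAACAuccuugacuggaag
miR-148a-3p: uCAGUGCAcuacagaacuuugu
miR-192-5p: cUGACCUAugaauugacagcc
miR-101b-3p: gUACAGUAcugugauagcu
miR-340-5p: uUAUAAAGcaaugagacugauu
The 9 carry 7 seeds. miR-16-5p, near the 5p arm of miR-122, and miR-15a-5p, near the 3p arm, have one seed, and a copy of miR-16-5p lies beside miR-15a-5p on the minus strand of chromosome 14, at 61631936 to 61631957 and 61632075 to 61632096. miR-30a-5p and miR-30e-5p, both near the 3p arm, have another, and come from chromosome 1 (23272274 to 23272295) and chromosome 4 (120772660 to 120772681). In the same RefSeq set, 10 mature mouse miRNAs carry the first of these shared seeds and 4 the second. miR-16-5p is also encoded on chromosome 3, so its count joins 2 loci. The 3 neighbours of miR-122-5p that are liver-enriched, miR-22-3p, miR-148a-3p and miR-192-5p, have different seeds.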

How the data were processed

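Small RNA libraries from total RNA of mouse liver (extracted with miRNeasy and prepared with a TruSeq kit, per the labels' protocols) were used as the raw read counts per mature miRNA that the authors deposited, 1 file per library. Per the submitters' processing notes, Bowtie and HTSeq were used with build mm10; their versions and settings, trimming and the miRNA release are not stated. Summary entries that name no miRNA (31.3% to 34.6% of reads) were left out, and reads counted as aligned at several places number 0 in every file. Counts differed between the replicates of a group by 237 (controls) and 324 (TAA) chi-square units per degree of freedom, well above sampling noise.

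The main test was edgeR 4.0.16 in R 4.3.3 (quasi-likelihood F test after filterByExpr and TMM, 7.94 degrees of freedom; common biological coefficient of variation 0.191), Benjamini-Hochberg adjusted over 644 miRNAs at 0.05. Arm ratios, log2 of 5p over 3p counts each plus 0.5, went into limma 3.58.1 where both arms averaged 20 counts or more. Alternatives included DESeq2 1.42.0. The members and lists were chosen with earlier results of these data known. Named miRNAs were both arms, the liver-enriched list, the most abundant member of each other list, the neighbours in rank, and the 5 nearest patterns per arm.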

Additional observations from a re-analysis of the deposited data

How the results depend on the processing

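The direction of both arms of miR-122 held under every alternative fit tried. With all libraries, the log2 fold change ran from -0.37 to -0.07 for miR-122-5p and from -0.50 to -0.20 for miR-122-3p. The fits without 1 library gave -0.33 to -0.08 and -0.43 to -0.24. Only miR-122-3p with upper-quartile factors crossed the threshold (-0.50, edgeR adjusted p = 0.0407; over its other alternatives 0.0575 to 0.451). The arm ratio stayed between 0.10 and 0.16 in all 8 alternatives. The share of miR-122-5p turned from -0.088 to 0.0026 percentage points without control 2, with a range of -0.18 to 0.0026 over the fits without 1 library; the cause was not tested. With a minimum of 10 CPM in 2 libraries, 41 of the 282 miRNAs then tested changed, against 107 of 644 in the main fit. Fewer miRNAs were tested there, so the 2 counts are not directly comparable. Between 49 and 131 miRNAs changed in the fits without 1 library. Hairpins with a changed arm ratio numbered 0, 3 with a pseudocount of 5, 1 with a minimum mean of 100 counts in each arm, and 0 to 13 without 1 library. Of the other liver-enriched miRNAs, 1 (miR-802-5p) fell with upper-quartile factors, 2 (miR-101b-3p and miR-802-5p) with no filter on low counts, and 0 to 4 without 1 library. miR-215-5p, at -0.0043 with TMM and -0.17 with upper-quartile factors, turned positive with library size alone (0.11), with at least 10 CPM (0.071), with limma-voom (7.74e-05), without control 1 and without TAA 1, with a range of -0.13 to 0.11 over the fits without 1 library. The replicate numbers pair nothing by label, and same-numbered libraries deviated in opposite directions (r = -0.46 over 137 miRNAs). With the replicate block, 110 miRNAs changed, and the arms of miR-122 gave -0.19 and -0.32. With the block crossed, a choice made after seeing the data, 115 miRNAs and 2 of the liver-enriched ones changed. With at least 62754 counts for each arm in every library, counting error is small beside the spread between libraries.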
